A study of Homo sapiens with 40 samples.

Results

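The S100 genes described here in RKO cells are S100A2, S100A4, S100A6, S100A10, S100A11, S100A13, S100A14, S100A16 and S100P. They are 9 of the 19962 genes in the deposited count table and were taken by gene symbol, and their values are given in all 40 libraries. S100A2 was put in the set because its mRNA was higher with doxycycline in all 3 lines, so its values in the doxycycline and DMSO libraries are a description and are given without a test.

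RKO is an established human colorectal carcinoma line, used here with Cas9 under a doxycycline-inducible promoter and a GFP reporter. Lentivirus added a pair of guide RNAs and a blue fluorescent protein, and the cells were sorted for that protein, so each line is a pool and not 1 clone. The guides were directed against AAVS1, a non-coding control locus (sgAAVS1), against IGF2BP2 (sgIGF2BP2) or against IGF2BP3 (sgIGF2BP3), and IGF2BP2 and IGF2BP3 are RNA-binding proteins. Cells of each line received doxycycline (Dox, 250 ng/mL for 72 hours) to induce Cas9, or DMSO. The sgIGF2BP2 and sgIGF2BP3 lines were also transfected at 75 nM for 48 hours with a non-targeting siRNA (siControl) or with an siRNA pool against the gene that the line's own guides target (siIGF2BP2 or siIGF2BP3); for these groups the labels list no Dox and no DMSO. All 10 groups, controls included, carried the Cas9 construct and were given 4-thiouridine (250 µM for 2 hours), a nucleoside that marks newly made RNA. Each group has 4 libraries of poly(A) RNA, each from 1 well. The p-values below therefore measure the spread between wells.

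S100 proteins are small calcium-binding proteins of vertebrates with a pair of EF-hand motifs, and most act as dimers. Calcium changes their shape and exposes a surface that binds target proteins such as annexins, myosin and cytoskeletal proteins, so they have no enzyme activity of their own. In colorectal and other carcinomas several of them, among them S100A4 and S100P, are known as markers of invasive growth. S100A2 is known as a mostly nuclear member whose promoter has been reported to respond to the tumour suppressor p53.

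Of the 9 genes, 8 lie on the reverse strand of chromosome 1, and S100P lies on chromosome 4. In GRCh38, S100A10 (ENSG00000197747) spans chr1:151982915-151994390 and S100A11 (ENSG00000163191) spans chr1:152032506-152047907. The other 6 on chromosome 1 lie close together: S100A6 (ENSG00000197956, chr1:153534599-153536244), S100A4 (ENSG00000196154, chr1:153543613-153550136), S100A2 (ENSG00000196754, chr1:153561108-153567890), S100A16 (ENSG00000188643, chr1:153606886-153613145), S100A14 (ENSG00000189334, chr1:153614255-153616986) and S100A13 (ENSG00000189171, chr1:153618787-153631360). S100P (ENSG00000163993) spans chr4:6693069-6697170 on the forward strand. The gap between neighbours is 1109 bases from S100A16 to S100A14 and 1800 bases from S100A14 to S100A13, against 1486691 bases from S100A11 to S100A6. Between S100A10 and S100A13 the table holds 56 other genes, many of them genes of the skin barrier, and 1 of these, S100A3, had enough reads to be tested.

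Promoter windows of S100A2 and S100A13 are shown because in all 3 lines each of their Dox libraries lay above each DMSO library. Windows of S100A10, S100A11 and S100A16 are shown because these passed the test as higher in siControl than in DMSO libraries of both lines. Of the 2 S100A16 windows only the distal one is printed, and the other is described below. Each window holds 250 bases before and 50 after a transcription start that RefSeq annotates (GRCh38.p14), is printed 5′ to 3′ on the gene's strand, and has matches to 4 motifs in capitals. Both strands were searched for TATAAA (the TATA box), TGANTCA (the AP-1 site), GGGCGG (the GC box) and the consensus of a p53 half-site. The windows are chr1:153565795-153566094 (S100A2 distal), chr1:153563838-153564137 (S100A2 proximal), chr1:153634312-153634611 (S100A13 distal, upstream of the span given above), chr1:153627456-153627755 (S100A13 middle), chr1:153627190-153627489 (S100A13 proximal, which overlaps the middle one), chr1:151993810-151994109 (S100A10), chr1:152036955-152037254 (S100A11) and chr1:153613088-153613387 (S100A16 distal).
S100A2 distal: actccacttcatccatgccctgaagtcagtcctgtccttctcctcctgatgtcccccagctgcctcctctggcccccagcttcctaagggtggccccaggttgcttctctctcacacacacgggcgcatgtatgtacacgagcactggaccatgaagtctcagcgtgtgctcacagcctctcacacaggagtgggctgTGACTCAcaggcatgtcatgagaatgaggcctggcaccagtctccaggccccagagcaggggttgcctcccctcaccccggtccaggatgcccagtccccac
S100A2 proximal: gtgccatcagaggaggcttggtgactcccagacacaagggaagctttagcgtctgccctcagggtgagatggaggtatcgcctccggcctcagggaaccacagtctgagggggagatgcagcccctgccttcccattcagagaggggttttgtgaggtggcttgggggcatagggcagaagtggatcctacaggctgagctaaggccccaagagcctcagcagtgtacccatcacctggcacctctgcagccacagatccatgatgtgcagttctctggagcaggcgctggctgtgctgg
S100A13 distal: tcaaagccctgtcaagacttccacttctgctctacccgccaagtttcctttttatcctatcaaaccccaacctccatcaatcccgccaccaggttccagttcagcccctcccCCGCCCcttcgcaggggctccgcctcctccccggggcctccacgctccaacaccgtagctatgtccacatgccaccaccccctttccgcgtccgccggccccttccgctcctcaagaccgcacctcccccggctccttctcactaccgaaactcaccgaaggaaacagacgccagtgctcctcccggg
S100A13 middle: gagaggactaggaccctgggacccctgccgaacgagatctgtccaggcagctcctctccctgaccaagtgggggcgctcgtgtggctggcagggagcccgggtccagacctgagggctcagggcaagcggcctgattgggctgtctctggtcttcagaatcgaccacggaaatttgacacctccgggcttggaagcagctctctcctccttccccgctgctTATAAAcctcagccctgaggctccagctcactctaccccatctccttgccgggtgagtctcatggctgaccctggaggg
S100A13 proximal: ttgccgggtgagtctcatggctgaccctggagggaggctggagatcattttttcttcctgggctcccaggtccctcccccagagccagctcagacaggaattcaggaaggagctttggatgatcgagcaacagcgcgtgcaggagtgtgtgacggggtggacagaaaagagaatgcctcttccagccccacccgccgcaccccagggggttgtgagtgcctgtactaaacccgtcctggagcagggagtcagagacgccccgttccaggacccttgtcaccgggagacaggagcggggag
S100A10: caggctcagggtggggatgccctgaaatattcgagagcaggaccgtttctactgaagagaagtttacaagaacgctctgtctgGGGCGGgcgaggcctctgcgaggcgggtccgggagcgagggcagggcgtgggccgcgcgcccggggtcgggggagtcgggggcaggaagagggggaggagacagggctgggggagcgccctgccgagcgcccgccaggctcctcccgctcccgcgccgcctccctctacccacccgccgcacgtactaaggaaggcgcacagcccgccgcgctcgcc
S100A11: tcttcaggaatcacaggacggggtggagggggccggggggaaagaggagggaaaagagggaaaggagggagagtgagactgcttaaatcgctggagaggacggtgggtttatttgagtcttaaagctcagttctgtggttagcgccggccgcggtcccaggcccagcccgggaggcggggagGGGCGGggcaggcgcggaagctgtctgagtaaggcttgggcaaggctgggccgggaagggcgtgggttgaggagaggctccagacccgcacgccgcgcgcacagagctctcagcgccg
S100A16 distal: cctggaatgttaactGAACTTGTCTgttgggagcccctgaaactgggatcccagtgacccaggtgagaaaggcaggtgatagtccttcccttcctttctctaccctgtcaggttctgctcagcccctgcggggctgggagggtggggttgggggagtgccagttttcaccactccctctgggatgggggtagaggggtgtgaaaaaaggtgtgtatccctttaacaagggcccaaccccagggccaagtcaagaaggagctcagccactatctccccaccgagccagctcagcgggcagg

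The 13 RefSeq windows of the 9 members, which cover all 9, differ in the motifs they hold. The distal S100A2 window has an AP-1 match, TGACTCA, that begins 52 bases before the start, and the proximal one has no match to any of the 4 motifs. The middle S100A13 window has a TATA box 29 bases before the start, the distal one has a GC box on the other strand, and the proximal one has no match. S100A10 and S100A11 each have a GC box, as have the S100A6 window (3 matches) and the other S100A16 window. The distal S100A16 window holds the only p53 half-site match among the 13, GAACTTGTCT, 235 bases before the start, and neither S100A2 window has one. S100A4 and S100P windows each have a TATA box. Of all 35116 windows of this length in the RefSeq table, 11.5% hold TATAAA, 7.71% TGANTCA, 45% GGGCGG and 6.63% the p53 half-site, and a match or its absence is only a description of these letters. Counts per gene do not show which start was used.

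Library totals lay between 1.00e+07 and 2.48e+07 (median 1.35e+07), and 11428 genes had enough reads for testing. Induction of Cas9 left 39.5% of IGF2BP2 mRNA in sgIGF2BP2 cells and 31.1% of IGF2BP3 mRNA in sgIGF2BP3 cells, and the siRNAs left 27.9% and 14.6%. In sgIGF2BP2 cells with Dox, 84.3% of IGF2BP3 mRNA was left (adjusted p = 2.93e-06, edgeR's quasi-likelihood test). With Dox in sgIGF2BP3 cells and with either siRNA, the gene not targeted did not pass that test. The library sgIGF2BP2 Dox replicate 2 stood apart and gave the 3 highest chi-square values per gene (12 to 16.8) among 60 pairs of replicates, against 6.58 for the next pair. In the siIGF2BP2 group the 3 pairs with replicate 3 gave 5.74 to 6.58 and the other pairs 1.5 to 1.84. The called S100 results that rest on either library are also given without it. Levels are given as reads per 1000000 reads of the library (CPM). Of 9 markers of colorectal epithelium, KRT18 (185 CPM), KRT8 (52.9), CDX2 (19.5) and EPCAM (13.9) were present, while CDH1, KRT19, VIL1 and CDH17 had 4 to 9 reads in all 40 libraries together and KRT20 had 0. The 10 markers of fibroblasts, leukocytes and endothelium summed to 1.76 to 4.21 CPM in any library, most of it CD68.

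The S100 mRNAs fell into 4 abundant members, 2 of middle level and 3 near the detection limit. The CPM use library sizes scaled by edgeR's TMM (trimmed mean of M-values) method, and genes are compared as CPM per kilobase of annotated exon. On the scale per kilobase, S100A2 had a mean level of 1549 over the 40 libraries, S100A16 of 805, S100A6 of 703 and S100A11 of 402. S100A10 had 48.3 and S100A13 had 19.0 on that scale. In mean CPM, not corrected for length, S100A2 ranked 28 among the tested genes, S100A16 ranked 56, S100A6 159, S100A11 576, S100A10 2995 and S100A13 4806.

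**Figure D1:**
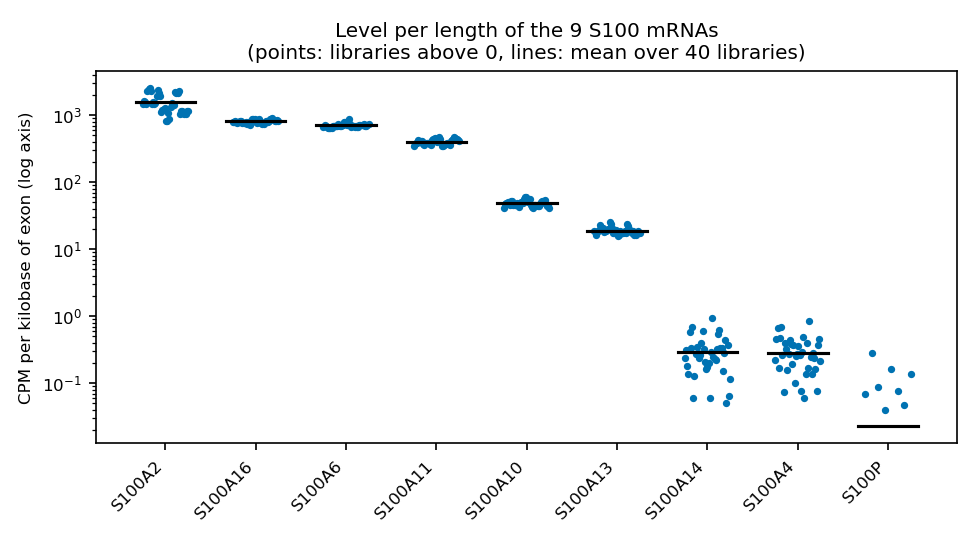
Level of each of the 9 S100 mRNAs in CPM per kilobase of exon on a log axis; each point is 1 of 40 libraries (libraries at 0 are not drawn), and the line is the mean over all 40. S100A2, at a mean of 1549, and S100A16, at 805, lead, and S100A14, S100A4 and S100P lie below 1.

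S100A4, S100A14 and S100P had few reads in any group. S100A4, known for binding non-muscle myosin and for promoting cell movement, had 163 reads in all 40 libraries, from 0 to 11 in a library and 0 in 2 of them. S100P, first found in placenta and known to bind ezrin, had 16 reads in all, and 32 libraries had 0. A count of 0 allows up to 3 reads, or 0.121 to 0.299 CPM at the depths of these libraries, counting error only. These 2 genes did not pass the filter on low counts and were not tested. S100A14, a member found mainly in epithelia, had 212 reads in all, from 0 to 19 in a library, and passed the filter through a few libraries with more reads.

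Counts of S100A14 overlapped between most groups. With DMSO and then Dox, the 4 libraries held 4, 6, 3 and 3 reads and 11, 5, 10 and 1 reads in sgAAVS1 cells, and 2, 4, 11 and 5 and 4, 6, 5 and 10 in sgIGF2BP2 cells. In sgIGF2BP3 cells they held 5, 5, 4 and 6 with DMSO and 8, 10, 5 and 6 with Dox. Scaled for depth, the sgIGF2BP3 groups did not overlap, at 0.283 to 0.413 CPM with DMSO and 0.426 to 0.788 CPM with Dox. In sgAAVS1 and sgIGF2BP2 cells they overlapped on that scale too. The log2 fold change with Dox was 0.92 in sgAAVS1, 0.38 in sgIGF2BP2 and 0.83 in sgIGF2BP3 cells (standard errors 0.56, 0.53 and 0.53). The highest count, 19, was in siIGF2BP2 replicate 4, while the other libraries of that group had 1 to 5. edgeR's quasi-likelihood test called S100A14 in none of 14 contrasts, and small changes were not detectable at this depth. Counts of S100A4 ranged from 1 to 9 in sgAAVS1 libraries, from 1 to 8 in sgIGF2BP2 libraries and from 0 to 11 in sgIGF2BP3 libraries.

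**Figure D2:**
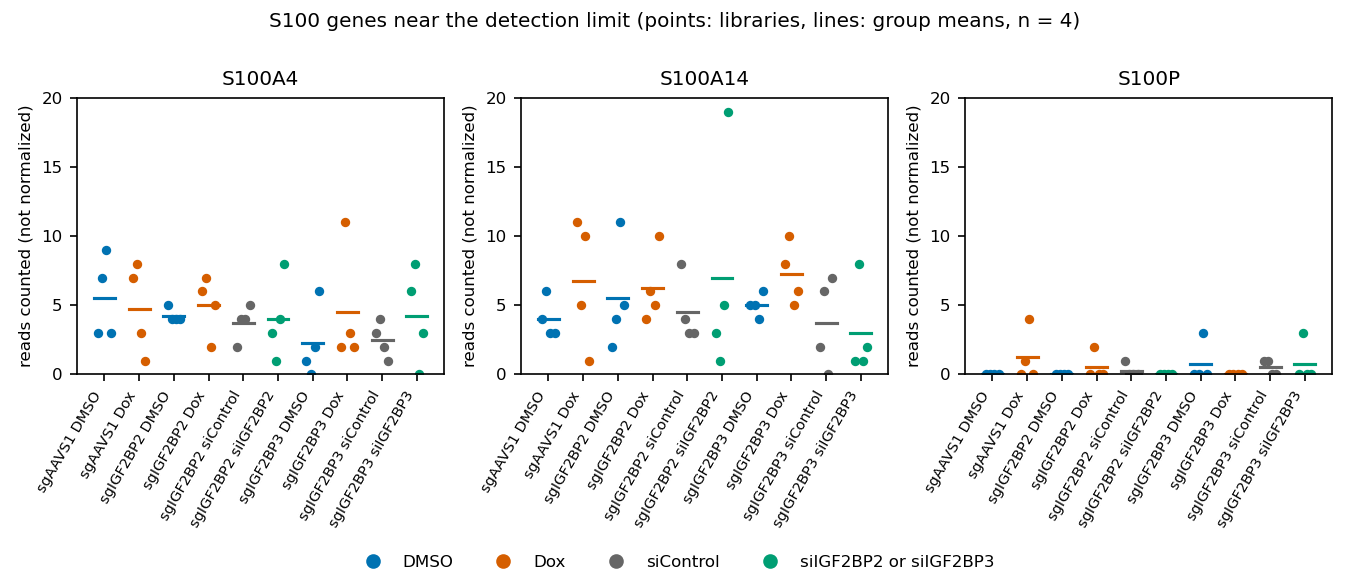
Reads counted for S100A4, S100A14 and S100P in each library of the 10 groups (4 libraries a group, not normalized); points are libraries and lines are group means. The highest values are 11 for S100A4, 19 for S100A14 and 4 for S100P, and most S100P points are at 0.

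S100A2 was the most abundant S100 mRNA. As a description that includes the Dox values that chose it, its highest group mean was 2.64 times its lowest, against 1.17 to 1.32 times for S100A16, S100A6, S100A11, S100A10 and S100A13. The factors of S100A14 (3.08) and S100A4 (2.5) rest on a few reads. In sgAAVS1 cells it was at 2301, 2559.9, 2451 and 2284 CPM with DMSO and at 3539, 3817, 3957 and 3631 CPM with Dox. The sgIGF2BP2 line held 2280.2, 2452, 2308 and 2349.9 CPM with DMSO and 3053, 3769, 3345 and 3058 CPM with Dox. Values in the sgIGF2BP3 line were 2089, 2401, 2269 and 2240.2 CPM with DMSO and 3512, 3399, 3355 and 3633 CPM with Dox. Every Dox library lay above every DMSO library of its line, the control line sgAAVS1 included.

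As a description of the values that chose the gene, S100A2 was 55.7% higher with Dox in sgAAVS1 cells (log2 fold change 0.64, standard error 0.053), 40.9% higher in sgIGF2BP2 cells (0.49, 0.053) and 54.4% higher in sgIGF2BP3 cells (0.63, 0.053). Without sgIGF2BP2 Dox replicate 2, the highest library of its group, the log2 fold change in sgIGF2BP2 cells was 0.42. The Dox effect in sgIGF2BP2 cells minus that in sgAAVS1 cells was -0.14 on the log2 scale, and -0.21 without that library. The Dox effect in sgIGF2BP3 cells minus that in sgAAVS1 cells was -0.012. These differences share the sgAAVS1 libraries and were not tested.

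In the siRNA libraries, which the choice of the gene did not use, S100A2 fell with siIGF2BP2 and did not pass the test with siIGF2BP3. With siControl in sgIGF2BP2 cells it was at 1774, 1845, 1938 and 1981 CPM, and with siIGF2BP2 at 1287, 1286, 1692 and 1388 CPM. All 4 siIGF2BP2 libraries were below all 4 siControl libraries, replicate 3 being the highest of the former. The log2 fold change was -0.42 (standard error 0.053, adjusted p = 2.30e-09), a mean decrease from 1885 ± 92.9 to 1413 ± 192 CPM (SD, n = 4). Without siIGF2BP2 replicate 3 the log2 fold change was -0.51. Adjusted p-values here and below come from edgeR's quasi-likelihood test with Benjamini-Hochberg adjustment over the 11428 genes, and a gene is called when that p is under 0.05.

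With siIGF2BP3 the groups overlapped, at 1657, 1793, 1819 and 1701 CPM with siControl and 1641, 1644, 1805 and 1794 CPM with siIGF2BP3. The log2 fold change was -0.018 (95% interval -0.12 to 0.086, adjusted p = 0.934), and it changed sign when any of 3 libraries was left out (siControl replicate 3, siIGF2BP3 replicate 1 or 2), to at most 0.0039. The siIGF2BP3 effect minus the siIGF2BP2 effect was 0.40 (standard error 0.076, adjusted p = 5.27e-05; 0.49 without siIGF2BP2 replicate 3), a contrast in which 18.7% of all genes were called. These 2 effects were measured in different lines, so the siRNA and the line cannot be told apart in that difference. In bulk RNA, fewer cells that carry an mRNA and less of it per cell cannot be told apart either.

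Ordered by group mean, S100A2 formed 3 blocks that did not overlap: the 4 siRNA groups (means from 1413 to 1885 CPM), the 3 DMSO groups (2249.8 to 2399) and the 3 Dox groups (3306 to 3736). Within a block, neighbours in the order overlapped. The log2 fold change of S100A2 between siControl and DMSO libraries was -0.32 in sgIGF2BP2 cells and -0.37 in sgIGF2BP3 cells, again as a description. The siControl and DMSO groups differ in transfection, in the siRNA, in the solvent and in the time, which cannot be told apart, and the DMSO libraries are those of the Dox contrasts.

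**Figure D3:**
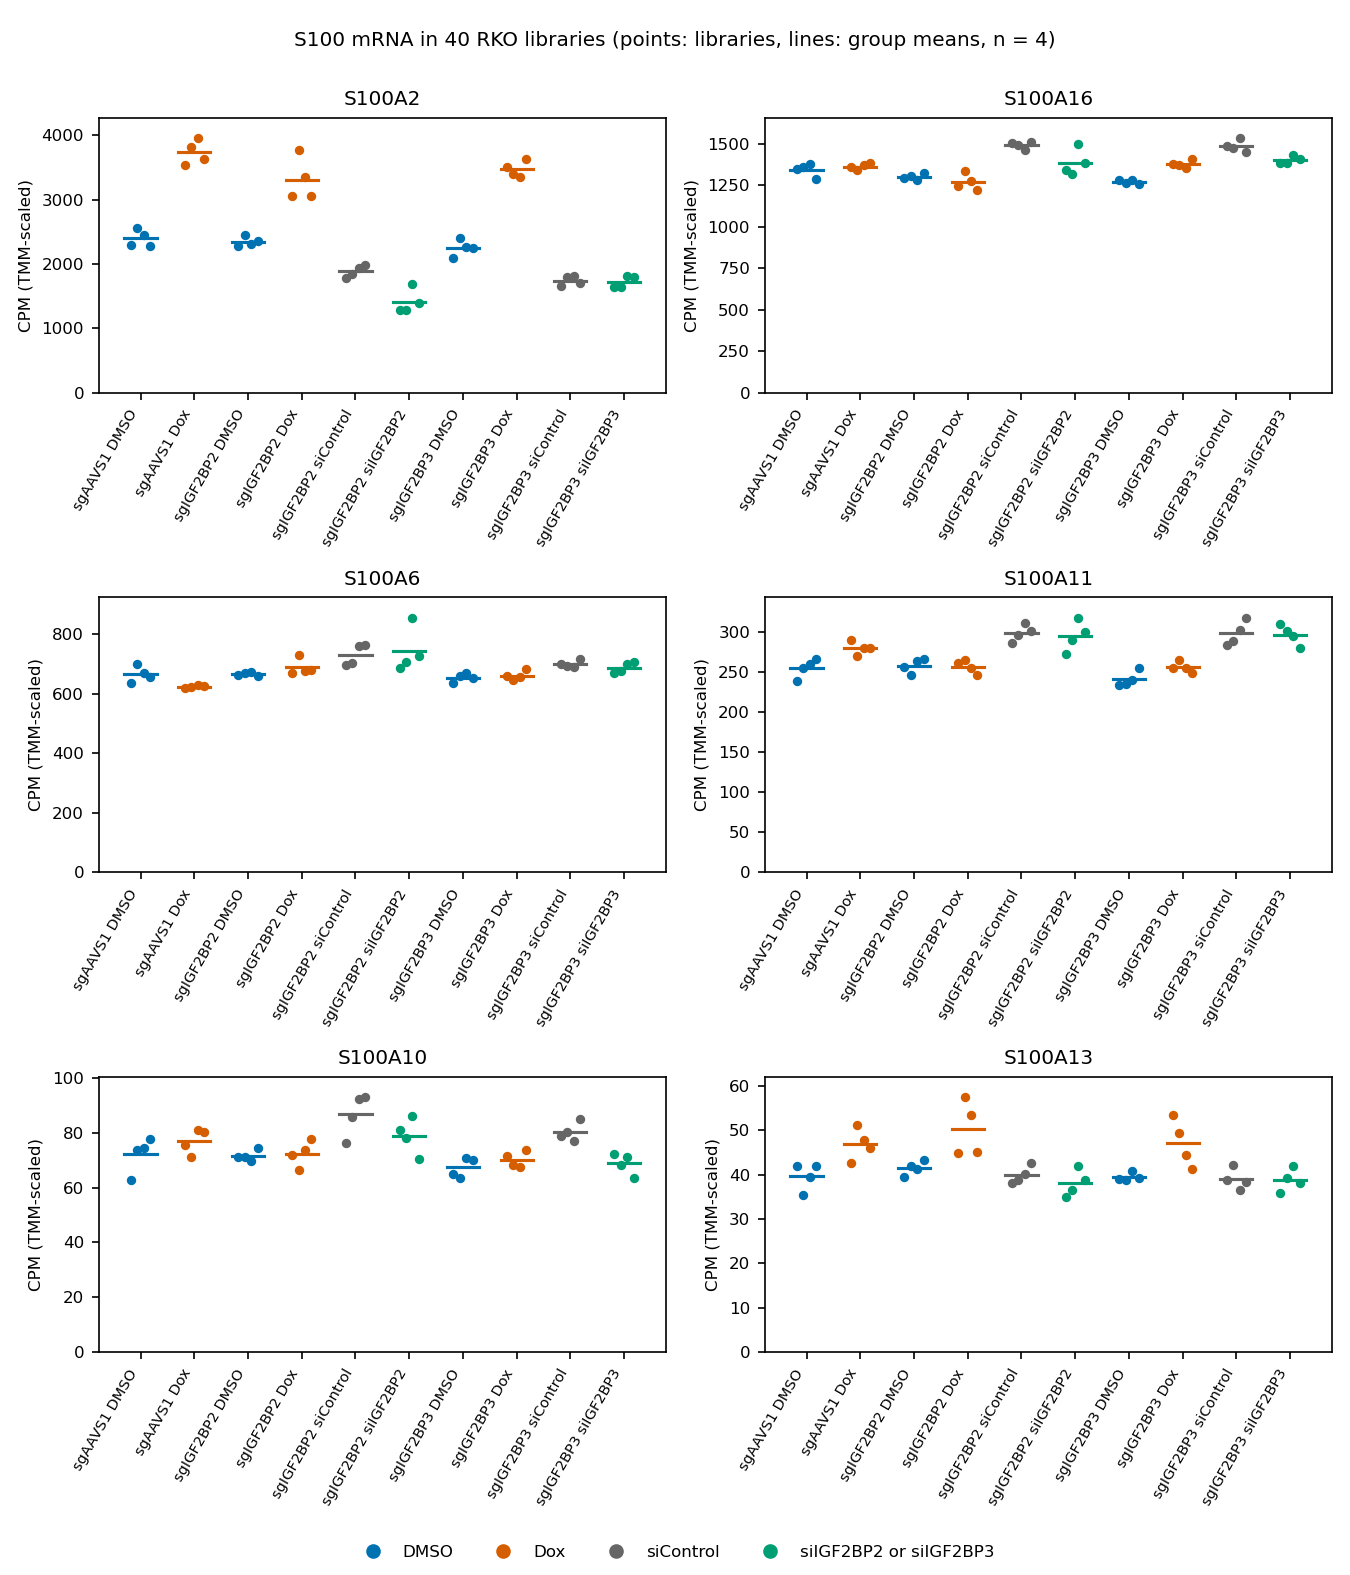
CPM of the 6 expressed S100 mRNAs in the 10 groups, each axis starting at 0; points are libraries (4 a group), lines are group means and colours mark DMSO, Dox, siControl and the siRNAs against IGF2BP2 or IGF2BP3. S100A2 shows Dox above DMSO above siControl, S100A13 is highest with Dox, and S100A16 and S100A10 are highest with siControl. S100A11 is similarly high in all 4 siRNA groups, at means of 295 to 298 CPM.

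The 5 genes, members left out, with group means most like those of S100A2 were chosen by Pearson's r of mean log2 CPM over the 10 groups among 9957 genes whose log2 CPM averaged 2 or more. These were LIMA1, an actin-binding protein (r = 0.987), KAT7, a histone acetyltransferase (0.972), TSPYL1 (0.969), CUBN, an endocytic receptor (0.965), and SYNPO, an actin-associated protein (0.960). Their sizes of change differed: SYNPO went from 8.63 to 16.2 CPM with Dox in sgAAVS1 cells, and LIMA1 from 74.6 to 86.0 CPM. S100A13 ranked 46 in this order with r = 0.907, and S100A6 had -0.763, S100A11 -0.581, S100A16 -0.470 and S100A10 -0.320. S100A14, too low in level to be among the compared genes, had 0.738, which rests on few reads. The median r was 0.0089, and 60 genes were above 0.9. The 10 group means share libraries, treatments and scaling, so these values are a description.

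**Figure D4:**
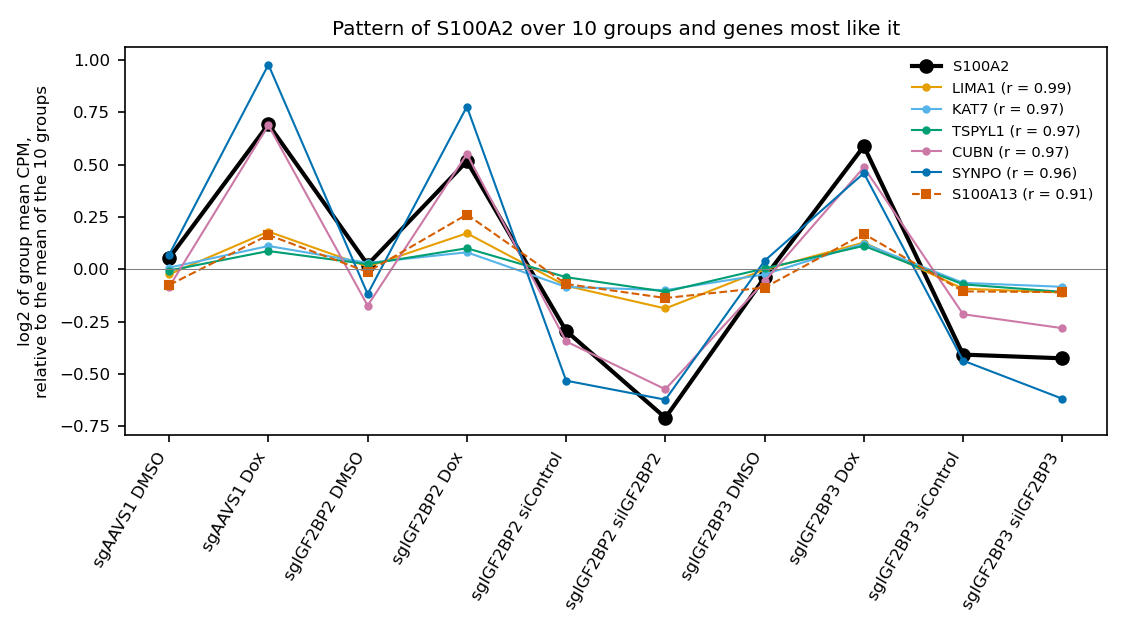
Group means of S100A2, of the 5 genes whose pattern is most like it and of S100A13, as log2 of mean CPM relative to the mean of the 10 groups; lines join the groups for reading only. Each of the 7 genes is highest in a Dox group and lowest in an siRNA group, and SYNPO and CUBN span a wider range than LIMA1, KAT7, TSPYL1 and S100A13.

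S100A13, which takes part in the release of FGF1 and IL1A from cells without a signal peptide, rose with Dox in all 3 lines, by less than S100A2. In sgAAVS1 cells it was at 42.0, 35.5, 39.4 and 42.0 CPM with DMSO and 42.6, 51.2, 47.7 and 46.1 CPM with Dox (log2 fold change 0.23, standard error 0.068, adjusted p = 0.0110). In sgIGF2BP2 cells it was at 39.5, 41.9, 41.4 and 43.2 CPM with DMSO and 44.8, 57.4, 53.4 and 45.1 CPM with Dox (0.28, 0.066, adjusted p = 0.00116). In sgIGF2BP3 cells it was at 39, 38.7, 40.7 and 39.1 CPM with DMSO and 53.4, 49.3, 44.4 and 41.2 CPM with Dox (0.25, 0.068, adjusted p = 0.0251). Dox and DMSO libraries did not overlap in any line, and the lowest Dox library came within 1 CPM of the highest DMSO library in sgAAVS1 and sgIGF2BP3 cells. The share of all genes without overlap was not counted, here or in other contrasts, so non-overlap is only a description.

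The sgIGF2BP2 call for S100A13 held without Dox replicate 2, its highest library (0.19, adjusted p = 0.0373). The sgAAVS1 call was lost without DMSO replicate 2 (0.18, adjusted p = 0.0850) or Dox replicate 2 (0.19, 0.0721). The sgIGF2BP3 call was lost without DMSO replicate 1, 2 or 4 or Dox replicate 1 or 2 (adjusted p from 0.0555 to 0.137). No difference between Dox effects on it passed the test, between sgIGF2BP2 and sgAAVS1 cells (difference 0.044, 95% interval -0.14 to 0.23, adjusted p = 0.841), between sgIGF2BP3 and sgAAVS1 cells (0.019, -0.17 to 0.21, adjusted p = 0.937) or between sgIGF2BP3 and sgIGF2BP2 cells (-0.025, -0.21 to 0.16, adjusted p = 0.941). S100A13 shares 235 exon bases with S100A1 on the opposite strand, which had 126 reads in all libraries, and 536 bases on the same strand with the transcript AL162258.1, which is not analysed here. With siControl its group means were 39.9 ± 1.99 CPM in sgIGF2BP2 cells and 38.9 ± 2.32 CPM in sgIGF2BP3 cells, next to 38.1 ± 3.01 CPM with siIGF2BP2 and 38.8 ± 2.49 CPM with siIGF2BP3 (SD, n = 4), and S100A13 was called in no siRNA contrast.

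Of the 6 tested members other than S100A2, S100A13 and S100A11 rose with Dox in sgAAVS1 cells, S100A13 in sgIGF2BP2 cells, and S100A13 and S100A16 in sgIGF2BP3 cells. None was called lower, also with DESeq2, and at an unadjusted p under 0.05 only S100A6 in sgAAVS1 cells was lower. Over all genes tested, sgAAVS1 cells had 15.9% called with Dox (7.25% higher), sgIGF2BP2 cells 20.4% (10% higher) and sgIGF2BP3 cells 2.64% (1.64% higher), and since these contrasts served to choose the set, nothing is read from the counts. Between the Dox effects of sgIGF2BP3 and sgIGF2BP2 cells 1 of the 6 was called, S100A16, where 2.91% of all genes were. In the differences of sgIGF2BP2 and of sgIGF2BP3 from sgAAVS1 cells none was called by edgeR or DESeq2, where 6.97% and 7.78% of all genes were called by edgeR. At an unadjusted p under 0.05, 2 of the 6 passed in each, as did 2461 and 2657 of all 11428 genes.

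S100A11, a partner of annexin A1 known for roles in membrane repair and growth control, rose with Dox in sgAAVS1 cells alone among the 3 lines by the test. It went from 239, 255, 260.1 and 266 CPM to 289.4, 269.8, 279 and 280.0 CPM, with no overlap (log2 fold change 0.13, standard error 0.039, adjusted p = 0.0119). The call was lost without DMSO replicate 1 (adjusted p = 0.0848) or Dox replicate 1 (0.0605). With DMSO and Dox it averaged 258 ± 8.90 and 256 ± 8.38 CPM in sgIGF2BP2 cells, and 241 ± 9.99 and 255 ± 6.62 CPM in sgIGF2BP3 cells (SD, n = 4). Neither difference between lines passed the test: the Dox effect in sgIGF2BP2 cells minus that in sgAAVS1 cells was -0.14 (adjusted p = 0.106) and that in sgIGF2BP3 cells minus sgAAVS1 was -0.047 (adjusted p = 0.654). S100A11 has 2 pseudogenes on chromosome 7, S100A11P1 and S100A11P2, which could take some of its reads, depending on the counting.

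S100A16, a broadly expressed member reported to pair with S100A14, rose with Dox in sgIGF2BP3 cells from 1284, 1261, 1282 and 1259 CPM to 1377, 1374, 1352 and 1408 CPM, with no overlap (0.12, standard error 0.032, adjusted p = 0.0302). The call was lost in 7 of 13 alternative fits, among them those without sgIGF2BP3 DMSO replicate 2, 3 or 4 or Dox replicate 1, 2 or 4. In sgIGF2BP2 cells the libraries overlapped, at 1294, 1307, 1281 and 1323 CPM with DMSO and 1244, 1338, 1278 and 1219.9 CPM with Dox. The Dox effect in sgIGF2BP3 cells minus that in sgIGF2BP2 cells was 0.15 (standard error 0.045, adjusted p = 0.0475), lost in 16 of 21 alternative fits and 0.18 (adjusted p = 0.0107) without sgIGF2BP2 Dox replicate 2. Against sgAAVS1 cells, at 1342 CPM with DMSO and 1363 CPM with Dox, the difference was 0.094 (adjusted p = 0.193).

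S100A6, also called calcyclin and a ligand of CACYBP, held a narrow range with Dox. In sgAAVS1 cells it was at 637, 701, 669 and 656 CPM with DMSO and 619, 622, 628 and 625 CPM with Dox. All 4 Dox libraries were lower, but the log2 fold change of -0.095 did not pass the test (adjusted p = 0.0847; 0.0337 when only these 8 libraries were fitted). It averaged 667 ± 5.98 and 689 ± 27.1 CPM in sgIGF2BP2 cells and 654 ± 13.6 and 661 ± 15.6 CPM in sgIGF2BP3 cells with DMSO and Dox (SD, n = 4). S100A10, a partner of annexin A2, unlike its relatives does not bind calcium and is locked in the active form. With DMSO and Dox it averaged 72.2 ± 6.46 and 76.9 ± 4.51 CPM in sgAAVS1 cells. The averages were 71.5 ± 1.93 and 72.3 ± 4.65 CPM in sgIGF2BP2 cells and 67.3 ± 3.65 and 70.1 ± 2.83 CPM in sgIGF2BP3 cells. Neither S100A6 nor S100A10 was called with Dox in any line.

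**Figure D5:**
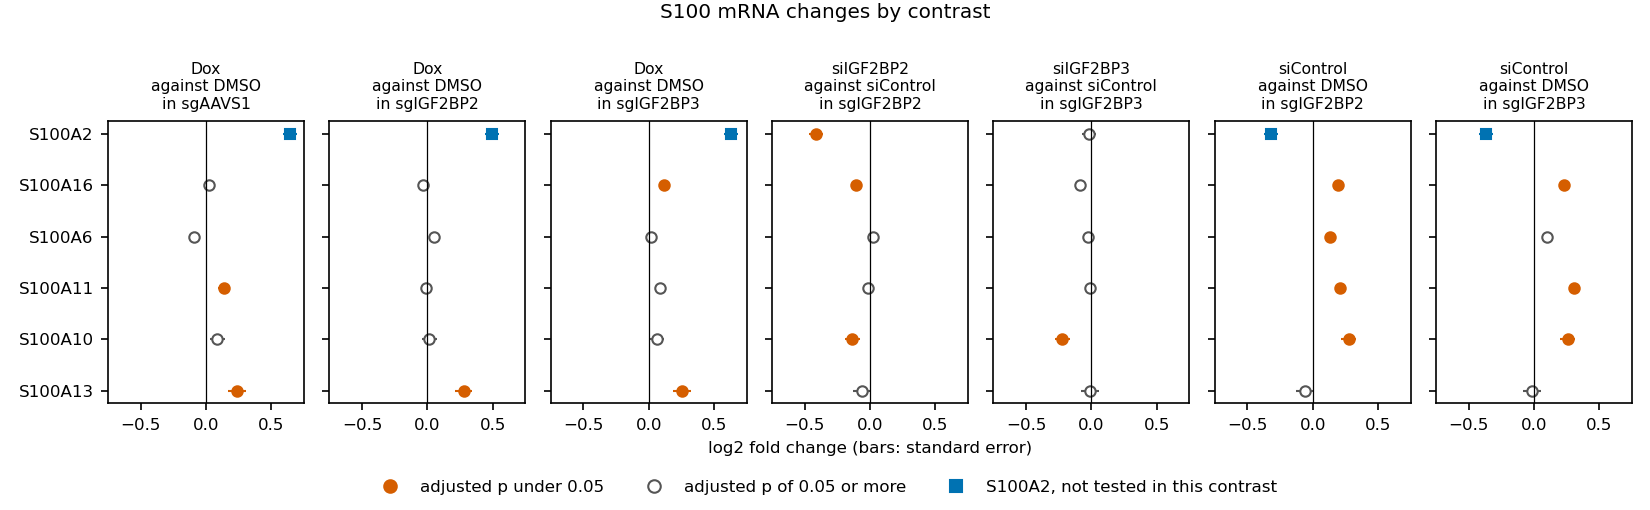
Log2 fold change with its standard error for the 6 expressed S100 mRNAs in 3 Dox, 2 siRNA and 2 siControl contrasts; filled circles have an adjusted p under 0.05, open circles do not, and squares mark S100A2 where no test was made. S100A2 lies at 0.49 to 0.64 in the Dox panels and at -0.42 with siIGF2BP2, and S100A16, S100A11 and S100A10 lie at 0.20 to 0.31 in the siControl panels.

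In the siRNA contrasts few S100 mRNAs other than S100A2 were called. Of the 6 tested members other than S100A2, 2 fell with siIGF2BP2, S100A10 and S100A16, where 18.4% of all genes were called lower and 36.8% in either direction. DESeq2 called S100A16 but not S100A10 there (adjusted p = 0.0506). With siIGF2BP3 1 fell, S100A10, where 1.4% were called lower and 2.34% in either direction. None was higher at an unadjusted p under 0.05 with either siRNA. The median log2 fold change of the 7 tested members, S100A2 included, was -0.060 with siIGF2BP2 and -0.026 with siIGF2BP3, against 0.011 and 0.0015 over all genes.

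S100A10 was at 78.8, 80.3, 77.1 and 84.9 CPM with siControl and 72.4, 68.3, 71.1 and 63.4 CPM with siIGF2BP3, with no overlap (log2 fold change -0.22, standard error 0.057, adjusted p = 0.0154). That call was lost without siControl replicate 4 (adjusted p = 0.0883) and without siIGF2BP3 replicate 2 (0.050) or 4 (0.104). In sgIGF2BP2 cells S100A10 was at 76.4, 85.7, 92.1 and 92.8 CPM with siControl and 81.0, 78.1, 86.0 and 70.3 CPM with siIGF2BP2, and the groups overlapped. It fell by 0.14 on the log2 scale (standard error 0.055, adjusted p = 0.0458), a call lost in 7 of 13 alternative fits, among them those without siControl replicate 2, 3 or 4 or siIGF2BP2 replicate 2 or 4 (-0.085, adjusted p = 0.270, without the last). Without siIGF2BP2 replicate 3 it was -0.18. The siIGF2BP3 effect minus the siIGF2BP2 effect on S100A10 was -0.087 (95% interval -0.24 to 0.069, adjusted p = 0.498).

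S100A16 was at 1503, 1491, 1462 and 1511 CPM with siControl and 1340.0, 1319.8, 1496 and 1385 CPM with siIGF2BP2. Replicate 3 of siIGF2BP2 lay within the siControl range and the other libraries below it. The log2 fold change of -0.11 (standard error 0.032, adjusted p = 0.00559) was called in all 13 alternative fits, and was -0.15 without replicate 3 of siIGF2BP2. In sgIGF2BP3 cells S100A16 was at 1488, 1473, 1536 and 1453 CPM with siControl and 1384, 1386, 1435 and 1410.1 CPM with siIGF2BP3, with no overlap, and the value of -0.084 did not pass the test (adjusted p = 0.178; 0.0365 when only these 8 libraries were fitted).

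S100A6 ranged from 697 to 764 CPM with siControl and from 686 to 856 CPM with siIGF2BP2. In the sgIGF2BP3 line its ranges were 689.9 to 718 CPM with siControl and 669 to 708 CPM with siIGF2BP3. For S100A11 they were 286 to 311 CPM with siControl against 272 to 317 CPM with siIGF2BP2, and 283 to 317 CPM against 280.0 to 309 CPM with siIGF2BP3. All of these ranges overlapped between siRNA and siControl, and neither S100A6 nor S100A11 was called with an siRNA.

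Epithelial markers moved in the same siRNA contrast: with siIGF2BP2, KRT18 fell by 0.49 on the log2 scale (adjusted p = 2.31e-15) and KRT8 rose by 0.55 (adjusted p = 6.90e-12). The 9 markers summed to 211 to 242 CPM with siIGF2BP2, against 245 to 248 with siControl, and to 255 to 270.3 with siIGF2BP3, against 248 to 262 with siControl. Their part in the S100 values was not tested. Markers of other cell types summed to 1.90 to 3.18 CPM with siIGF2BP2 and 2.03 to 3.22 with siControl, and to 2.30 to 2.45 with siIGF2BP3 and 1.91 to 4.21 with siControl, with COL1A2, DCN, LUM and CD3E at 0.

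Between siControl and DMSO libraries, S100A10, S100A11 and S100A16 rose in both lines that have these groups, while S100A2 was lower there. In sgIGF2BP2 cells 4 of the 6 tested members other than S100A2 were called higher and none lower, where 10.2% of all genes were called higher and 18.4% in either direction. In sgIGF2BP3 cells 3 were called higher and none lower, where 10.9% were called higher and 19.4% in either direction. S100A11 rose by 0.21 in sgIGF2BP2 cells (adjusted p = 3.52e-05) and by 0.31 in sgIGF2BP3 cells (adjusted p = 4.39e-09), with siControl libraries at 286, 296, 311 and 301 CPM and at 283, 288.7, 302 and 317 CPM. Its DMSO libraries, 256, 246, 264 and 265 CPM and 233, 234, 240.1 and 255 CPM, were all lower.

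S100A16 was 0.20 higher on the log2 scale in sgIGF2BP2 cells (adjusted p = 2.27e-06) and 0.23 higher in sgIGF2BP3 cells (adjusted p = 6.92e-08), and S100A10 was 0.27 higher (adjusted p = 0.000146) and 0.26 higher (adjusted p = 0.000489). For both genes every siControl library lay above every DMSO library of its line. S100A6 rose by 0.13 in sgIGF2BP2 cells (adjusted p = 0.00893; 0.0519 without siControl replicate 4). In sgIGF2BP3 cells S100A6 did not overlap either, but its value of 0.099 did not pass the test (adjusted p = 0.0617; 0.0409 with a term for the replicate number, 0.00347 when only these 8 libraries were fitted). Whether the S100A6 values differ between the lines was not tested. The epithelial markers summed to 245 to 262 CPM in the siControl groups and 273 to 287 in the DMSO groups of these lines, and their part in the result was not tested.

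Under DMSO no S100 mRNA passed the test between lines. None of the 6 tested members other than S100A2 was called between any pair of lines by edgeR or DESeq2, where 0.0175% of all genes were called by edgeR. At an unadjusted p under 0.05, 2 members were lower in sgIGF2BP3 than in sgAAVS1 cells, 1 was lower in sgIGF2BP3 than in sgIGF2BP2 cells and 0 differed between sgIGF2BP2 and sgAAVS1 cells. In the same order, 1327, 653 and 722 of all 11428 genes passed at that p. S100A16 was lower in every sgIGF2BP3 than in every sgAAVS1 DMSO library, at 1259 to 1284 CPM against 1287 to 1377 CPM.

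Other genes of the S100 family were scarce. Of 11 further family members in the table, 1 was tested, S100A3 at a mean of 6.69 CPM, and it was not called with Dox or siRNA in any line, nor had it an unadjusted p under 0.05; S100A3 lies within the span of S100A4 and shares no exon base with it. S100A1 had 126 reads in all, and the 7 fused-type genes of the family had at most 8. S100PBP, which encodes a binding protein of S100P, was expressed at 19.4 CPM while S100P had 16 reads in all, and rose by 0.27 with siIGF2BP2 (adjusted p = 0.00250; 0.19, adjusted p = 0.0526, without siIGF2BP2 replicate 4).

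Annexins, the calcium- and membrane-binding partners of several S100 proteins, had called members in both directions. Of 12 listed genes with a row 7 were tested. With Dox 1 was higher in sgAAVS1 cells, 2 were higher and 1 lower in sgIGF2BP2 cells, and none was called in sgIGF2BP3 cells by edgeR or DESeq2. Of all genes, 15.9%, 20.4% and 2.64% were called in either direction in these lines. At an unadjusted p under 0.05, 2 annexins passed in sgIGF2BP3 cells, as did 1898 of all 11428 genes. ANXA4 rose by 0.26 (adjusted p = 0.000651) in sgAAVS1 cells and by 0.22 (adjusted p = 0.00188) in sgIGF2BP2 cells, and ANXA5 by 0.19 in sgIGF2BP2 cells (adjusted p = 8.87e-06). With siIGF2BP2, ANXA5 rose by 0.16 (adjusted p = 0.000102) and ANXA7 fell by 0.14 (adjusted p = 0.00370), and with siIGF2BP3 none was called by edgeR or DESeq2, where 36.8% and 2.34% of all genes were. At an unadjusted p under 0.05, 1 annexin passed with siIGF2BP3, as did 1578 of all 11428 genes. The median annexin lay at 0.026, 0.045 and 0.056 in the 3 Dox contrasts and at 0.057 and -0.012 in the siRNA contrasts, against 0.0044, 0.0077 and 0.0027 and 0.011 and 0.0015 over all genes. ANXA2, the partner of S100A10, was expressed at 708 CPM and ANXA1, the partner of S100A11, at 2.2 CPM.

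Of 33 other reported S100 partners and receptors in the table, 23 were tested, and they moved in both directions. With Dox, 1 was higher and 2 lower in sgAAVS1 cells, 5 higher and 8 lower in sgIGF2BP2 cells, and 3 higher and 1 lower in sgIGF2BP3 cells, where 15.9%, 20.4% and 2.64% of all genes were called in either direction. CACYBP, the S100A6 ligand that links it to protein degradation, fell by 0.29 in sgIGF2BP2 cells (adjusted p = 2.64e-08) and by 0.13 in sgIGF2BP3 cells (adjusted p = 0.0392, lost in 6 of 13 alternative fits, those without DMSO replicate 1, 3 or 4 or Dox replicate 2, 3 or 4). MYH14, a non-muscle myosin heavy chain, rose by 0.40 in sgIGF2BP2 cells (adjusted p = 4.59e-06). With siIGF2BP2 5 were higher and 4 lower, where 36.8% of all genes were called, and with siIGF2BP3 1 was higher and 1 lower, where 2.34% were. ASIC1, an acid-sensing channel, rose by 0.57 with siIGF2BP2 (adjusted p = 2.21e-11), DDX21, an RNA helicase, fell by 0.47 (adjusted p = 2.79e-17), and the lysosomal protease CTSD rose by 0.28 (adjusted p = 9.79e-07). The chaperone FKBP4 fell by 0.26 with siIGF2BP2 (adjusted p = 4.04e-11) and by 0.12 with siIGF2BP3 (adjusted p = 0.0112; lost in 2 of 13 alternative fits, without siControl replicate 3, at 0.0553, and with no filter on low counts). The list's median was -0.0024, -0.021 and 0.016 in the Dox contrasts and -0.034 and -0.034 in the siRNA contrasts. The S100 receptor AGER was expressed at 2.77 CPM, while TLR4 had 6 reads in all libraries.

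Reported p53 target genes, counted because the S100A2 promoter is described as responsive to p53, were called only higher with Dox, and none was lower at an unadjusted p under 0.05. Of 24 listed genes with a row 23 were tested, and 14 were higher in sgAAVS1 cells, 23 in sgIGF2BP2 cells and 12 in sgIGF2BP3 cells, where 7.25%, 10% and 1.64% of all genes were called higher. The list's medians were 0.24, 0.59 and 0.23, against 0.0044, 0.0077 and 0.0027 over all genes. GDF15, a stress cytokine, rose by 1.25, 1.31 and 0.68 in the 3 lines (adjusted p = 5.73e-12, 1.16e-12 and 0.00200, the last 0.0563 without sgIGF2BP3 Dox replicate 2). BTG2, an antiproliferative protein, rose by 0.44, 1.37 and 0.77 (adjusted p = 4.14e-05, 2.50e-23 and 5.38e-11), and MDM2, which marks p53 for degradation and is itself a reported S100 partner, by 0.36, 0.74 and 0.18 (adjusted p = 1.96e-08, 2.87e-21 and 0.0194, the last lost in 4 of 13 alternative fits, those without DMSO replicate 2 or 4 or Dox replicate 1 or 2). With siIGF2BP2, where S100A2 fell, 6 were higher and 7 lower (median 0.0054, against 0.011 over all genes), where 36.8% of all genes were called. Among them were FAS, a death receptor, which fell by 0.45 (adjusted p = 9.83e-07), and FDXR, a mitochondrial reductase, which rose by 0.30 (adjusted p = 1.95e-05). With siIGF2BP3 1 was higher and 1 lower (median 0.023, against 0.0015), where 2.34% of all genes were called. Whether p53 has a part in the S100 values was not tested.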

How the data were processed

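Poly(A) RNA of 40 libraries (10 groups of 4 wells) was sequenced with a directional kit, per the labels' protocols. The authors deposited 1 table of whole-number read counts per gene, not normalized. The submitters' processing notes name bcl2fastq 2.20.0.422, STAR 2.7.5c and hg38, and the counting tool, annotation and use of strand are not given in the sources used here. Counts cover new and older RNA together, and genes that overlap or have pseudogenes may gain or lose reads. The table lists 19962 genes, of which 19847 were named by GENCODE release 29, which also gave positions and exon lengths (GRCh38); promoter windows are RefSeq's (GRCh38.p14).

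R 4.3.3 and edgeR 4.0.16 were used. Genes passing filterByExpr by group (11428, with 99.98% of counts) were fitted together over the 40 libraries with TMM scaling (factors 0.978 to 1.03), 1 coefficient per group and no covariates, and tested by quasi-likelihood with Benjamini-Hochberg adjustment. The standard error is the log2 fold change divided by the square root of F, and intervals are 95%. The common coefficient of variation was 3.79%, and no libraries were duplicates (chi-square per gene 1.50 to 16.8). On simulated counts for Dox in sgAAVS1 cells (11428 genes, 50 changed at each fold), 52% of changes of 1.2-fold, 86% of 1.5-fold, 96% of 2-fold and 100% of 3-fold were called, with 2 false calls. The simulated counts used the spread estimated from the data, and fewer genes were changed than the 1820 called in the real contrast. Recovery and false calls in the data can therefore differ. DESeq2 1.42.0, RLE factors, no filter, a replicate term, a fit of the compared groups only and leaving out each library were alternatives. The labels name no batch.

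The members and gene lists were chosen with earlier results of these data known. Besides the members, the rule named genes called with Dox or siRNA at a mean log2 CPM of at least 2, at most 8 per list by size of change; ANXA1, ANXA2, AGER, TLR4, S100A1 and S100A3 were named for their level only, chosen after their values were seen.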

Additional observations from a re-analysis of the deposited data

Results flagged for a closer look

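Each of the 9 members was looked at in each of the 10 groups of 4 libraries, and 86 of these 90 sets had values that were not all equal. In 7 sets 1 library lay far from the other 3 by Dixon's criterion, which chance alone meets in about 1 set in 20. Of these, 6 rest on a few reads. S100A4 had 5 reads in sgIGF2BP2 DMSO replicate 1, where each other library of the group had 4, and 11 reads in sgIGF2BP3 Dox replicate 2, against 2 to 3 in the others. S100P had 2 reads in sgIGF2BP2 Dox replicate 2, 1 in sgIGF2BP2 siControl replicate 1, 3 in sgIGF2BP3 DMSO replicate 3 and 3 in sgIGF2BP3 siIGF2BP3 replicate 2, with the other 3 libraries of each group at 0. The remaining one was S100A6 in sgIGF2BP2 Dox replicate 2, at 729 CPM against 670.1 to 679 CPM in the others, and that library also stands apart over all genes.

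Differences between effects passed edgeR's test of the difference for 2 members. For S100A16, the Dox effect in sgIGF2BP3 cells exceeded that in sgIGF2BP2 cells by 0.15 on the log2 scale (adjusted p = 0.0475), and 16 of 21 alternative fits did not call it. For S100A2, the siIGF2BP3 effect minus the siIGF2BP2 effect was 0.40 (adjusted p = 5.27e-05), called in all 21 alternative fits with values from 0.35 to 0.49; that difference is between 2 siRNAs in different lines.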

How the results depend on the processing

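For the S100 members, 40 log2 fold changes were followed over 616 alternative fits in all. They are the called ones, all those of S100A2 and some others given above, so the counts are not a rate for all members and contrasts. Of the fits, 556 kept direction and side of the threshold (or, without a test, moved by less than 1 SD). The call was lost in 43, 5 gained one and 12 changed sign. The 12 changes of sign were in S100A2 with siIGF2BP3 (-0.042 to 0.0039 over the fits without 1 library) and in differences between Dox effects on S100A13. The latter ranged from -0.039 to 0.096 (sgIGF2BP2 minus sgAAVS1), -0.045 to 0.082 (sgIGF2BP3 minus sgAAVS1) and -0.089 to 0.058 (sgIGF2BP3 minus sgIGF2BP2). Untested S100A2 values that crossed 0 but moved by less than 1 SD are not among the 12. These were the Dox effect in sgIGF2BP3 minus sgAAVS1 cells (-0.046 to 0.021) and sgIGF2BP2 against sgAAVS1 with DMSO (-0.054 to 0.0013). Deviations of same-numbered libraries from their group means correlated at a median of 0.0116 (-0.152 to 0.114). Of these, 1 of 180 pairs was above 0.1, against 6 of 540 pairs with different numbers. Such a correlation over all tested genes cannot exclude a small effect shared by a replicate number. A replicate block left 39 of the 40 results as they were, and S100A6 between siControl and DMSO in sgIGF2BP3 cells became called. With the block, 6 genes were called between sgIGF2BP3 and sgAAVS1 cells under DMSO, against 2 without it. In the other comparisons of lines under DMSO the count stayed at 2. In all other contrasts the count rose, by less than 1.5 times. With Dox it went from 1820 to 1913 in sgAAVS1 cells and from 302 to 342 in sgIGF2BP3 cells.

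Fitting only the groups compared gave 479 genes with Dox in sgIGF2BP3 cells (302 in the joint fit) and 457 with siIGF2BP3 (267). Between lines under DMSO, where 2 genes were called in each contrast, no filter gave 4 (sgIGF2BP2 against sgAAVS1) and 35 (sgIGF2BP3 against sgAAVS1), DESeq2 gave 5 in the latter, and the compared groups alone gave 4 there and 4 between sgIGF2BP3 and sgIGF2BP2. Without 1 library, counts ranged from 1312 to 1997, 1850 to 2168 and 103 to 286 with Dox in sgAAVS1, sgIGF2BP2 and sgIGF2BP3 cells. The sgIGF2BP3 count was 160 without DMSO replicate 3, 147 without DMSO replicate 4, 170 without Dox replicate 2 and 103 without Dox replicate 4. Counts ranged from 3652 to 3935 with siIGF2BP2, 180 to 221 with siIGF2BP3, 1840 to 2105 for the difference between the siRNAs, and 1683 to 1894 and 1702 to 2028 for siControl in sgIGF2BP2 and sgIGF2BP3 cells. For differences between Dox effects they ranged from 534 to 1156 (sgIGF2BP2 minus sgAAVS1), 415 to 1403 (sgIGF2BP3 minus sgAAVS1; 525 without sgAAVS1 DMSO replicate 2, 1403 without sgAAVS1 DMSO replicate 4, 415 without sgIGF2BP3 Dox replicate 4) and 262 to 369 (sgIGF2BP3 minus sgIGF2BP2). Between lines under DMSO they ranged from 1 to 2, 1 to 78 (sgIGF2BP3 against sgAAVS1; 78 without sgAAVS1 DMSO replicate 4) and 0 to 2. The causes were not tested. Over all alternatives the p53 list held 14 to 15, 23 and 10 to 16 called genes with Dox, and the partners 2 to 5, 9 to 13 and 1 to 5. Depth limits S100A4, S100A14 and S100P, for which small changes were not detectable.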
